A study of Mus musculus with 8 samples.

Results

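The 10 acute phase genes examined here encode proteins that the liver secretes into the blood: the serum amyloid A genes *Saa1*, *Saa2*, *Saa3* and *Saa4*, the lipocalin gene *Lcn2*, the orosomucoid genes *Orm1* and *Orm2*, haptoglobin (*Hp*), hemopexin (*Hpx*) and serum amyloid P component (*Apcs*). They were chosen by name from the 46078 gene identifiers whose counts the authors deposited, with earlier results of the same livers known. *Saa1*, *Saa2* and *Lcn2* were included because of their values in 1 liver, LWT replicate 4, so their levels over all 8 livers are a description and they were tested only in the other 7 livers. Each of the 10 symbols matched 1 identifier, and all 10 genes passed the filter on low counts that left 13856 genes for testing.

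Livers came from male mice homozygous for a loxP-flanked *Rbfox2* allele, which encodes an RNA-binding protein that regulates alternative splicing. The 4 LWT mice carried no Cre, and the 4 LΔRbfox2 mice carried Cre driven by the albumin promoter. The deletion is thus directed to hepatocytes, and whether all other liver cells keep the gene was not tested here. All mice were fed a control diet (chow in the labels) from 8 weeks of age and fasted for 16 h before harvest. The time on the diet was 12 weeks by the labels and 16 to 22 weeks by the study's methods. One library of poly(A) RNA was sequenced per liver, and the comparison asks which mRNAs differ when hepatocytes lack RBFOX2.

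Total counts per liver lay between 37482458 and 56177588, and values are given as CPM, counts scaled to the size of each library with TMM factors, on which 3 counts equal 0.0468 to 0.0929 CPM. *Rbfox2* mRNA was at 10.4 to 18.3 CPM in the LWT livers and at 2.24 to 6.09 CPM in the LΔRbfox2 livers, without overlap. Hepatocyte markers were abundant in every library, with *Alb* at 32480 to 55320 CPM, whereas the 10 neutrophil markers together were at 0.141 to 1.07 CPM, and only *S100a9* of them passed the filter on low counts. Major urinary protein mRNAs took between 21.4 and 43.6% of the counts, and the TMM factors ran from 0.724 in LΔRbfox2 replicate 3 to 1.14 in LΔRbfox2 replicate 2. In whole liver, fewer cells of a type and less RNA per cell cannot be told apart.

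During infection or tissue damage, macrophages release interleukin-6, interleukin-1 and related cytokines, and hepatocytes answer by changing which plasma proteins they make. Interleukin-6 acts through the gp130 receptor, JAK kinases and STAT3, interleukin-1 acts through NF-kB, and C/EBP transcription factors act at many of the promoters. Proteins whose synthesis goes up are positive acute phase proteins, and albumin, transthyretin and others whose synthesis goes down are negative ones. In mice, SAA1 and SAA2 are the strongly inducible serum amyloids carried on high-density lipoprotein, SAA4 is a constitutive one, and SAA3 is also made by macrophages and adipocytes.

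The promoters of 8 of the 10 genes were in the RefSeq table used here (GRCm38.p6), which held none for *Orm1* and *Hp*. The stretches from base −250 to base −51 relative to the RefSeq start are shown for *Saa1*, *Saa2* and *Orm2*, whose levels ordered the livers nearly alike, and for *Saa3*, a neighbour in the Saa cluster whose levels did not. Letters in capitals match TTGCNNAA, a core read by C/EBP proteins, on either strand (TTNNGCAA on the other strand).
*Saa1*, chr7:46743031-46743230, minus strand: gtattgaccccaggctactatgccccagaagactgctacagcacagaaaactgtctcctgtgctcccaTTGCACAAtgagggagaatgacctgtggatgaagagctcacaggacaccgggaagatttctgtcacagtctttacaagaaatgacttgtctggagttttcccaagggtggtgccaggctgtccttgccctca
*Saa2*, chr7:46751583-46751782, plus strand: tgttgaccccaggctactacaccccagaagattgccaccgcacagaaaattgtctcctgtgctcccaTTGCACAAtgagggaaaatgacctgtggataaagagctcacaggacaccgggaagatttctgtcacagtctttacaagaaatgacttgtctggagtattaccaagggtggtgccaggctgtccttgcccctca
*Saa3*, chr7:46715727-46715926, minus strand: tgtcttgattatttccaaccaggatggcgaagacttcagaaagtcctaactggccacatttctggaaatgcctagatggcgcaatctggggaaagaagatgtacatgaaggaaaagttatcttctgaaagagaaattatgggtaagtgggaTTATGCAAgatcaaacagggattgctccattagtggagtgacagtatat
*Orm2*, chr4:63362199-63362398, plus strand: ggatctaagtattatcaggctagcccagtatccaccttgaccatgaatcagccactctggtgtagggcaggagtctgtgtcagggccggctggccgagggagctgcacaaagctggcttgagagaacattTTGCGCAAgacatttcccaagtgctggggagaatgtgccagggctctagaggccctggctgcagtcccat
Over this window the promoters of *Saa1* and *Saa2* were 93.5% identical, with 11 mismatched bases and 2 gaps, and both held TTGCACAA, with its first base at −182 and −183 from the start. The *Saa1* and *Saa3* windows were 50.2% identical. The C/EBP core was found in 7 of the 8 promoters (*Saa1*, *Saa2*, *Saa3*, *Saa4*, *Lcn2*, *Orm2* and *Hpx*) and in 8.1% of 32851 RefSeq promoters over the same window. Of the 8 windows, that of *Lcn2* alone overlaps an annotated exon of its gene. The STAT core TTCNNNGAA, which reads the same on both strands, was found in the *Apcs* promoter and in 5.8% of all promoters, and an NF-kB core, searched on both strands in the same way, was found in 0 of the 8 and in 3.5% of all. The letters searched were chosen after the windows had been read, so these matches are a description.

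*Saa1* and *Saa2*, the inducible serum amyloids, varied more from liver to liver than nearly every other gene. *Saa1* (7:46740497-46742980) was at 62.2, 12.1, 9.98 and 681 CPM in LWT replicates 1 to 4 and at 62.6, 5.73, 17.7 and 28.0 CPM in LΔRbfox2 replicates 1 to 4. *Saa2* (7:46751790-46754313), which lies head to head with it, was at 36.7, 5.002, 3.18 and 455 CPM in the LWT livers and at 28.8, 1.62, 7.18 and 10.9 CPM in the LΔRbfox2 livers, in the same order. LWT replicate 4 stood far above the other livers for both genes, LWT replicate 1 and LΔRbfox2 replicate 1 came next at similar levels, LΔRbfox2 replicate 2 was lowest, and the genotypes overlapped.

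The spread was wide even without LWT replicate 4. From the lowest to the highest liver *Saa1* differed 119-fold with it and 10.9-fold without it, and *Saa2* 280-fold and 22.6-fold. The within-genotype SD of log2 CPM was 2.24 for *Saa1* and 2.60 for *Saa2*, and without LWT replicate 4 it was 1.44 and 1.77, against a median of 0.39 over all 13856 genes with and without that liver. Those SDs without LWT replicate 4 ranked at the 98.9 and 99.7 percentiles of all genes tested. *Saa1* exceeded *Saa2* in every liver, by 1.498-fold in LWT replicate 4 and 3.53-fold in LΔRbfox2 replicate 2, and no stretch of 100 bases, the read length, was shared between the *Saa1* and *Saa2* mRNAs (longest shared run 76 bases).

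**Figure D1:**
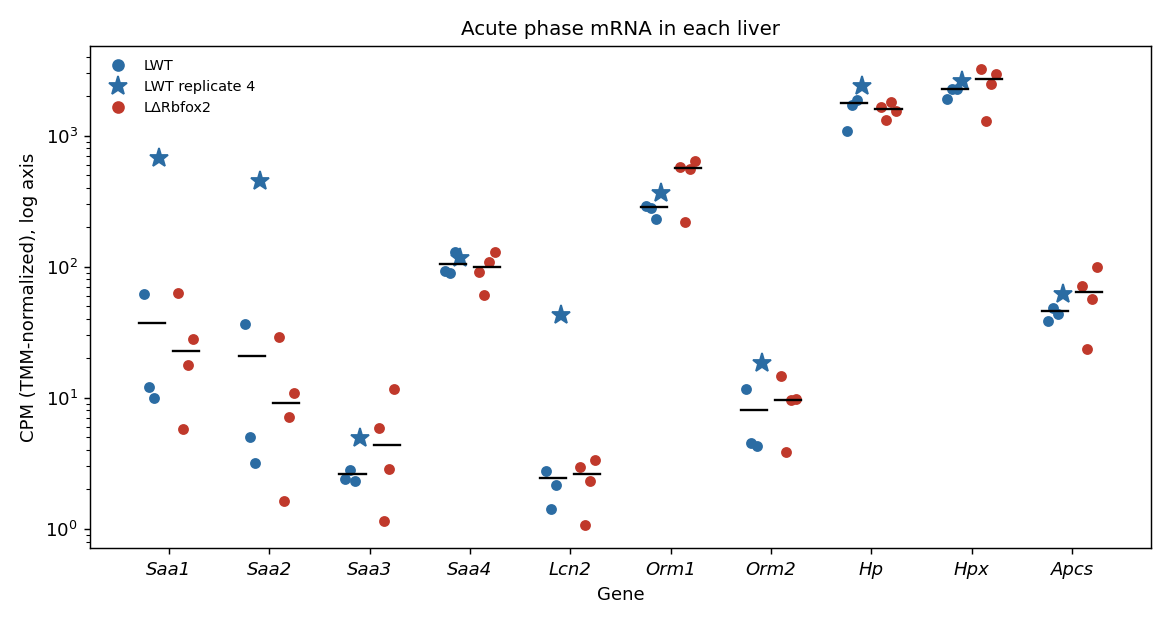
TMM-normalized CPM (log axis) of the 10 genes in each of the 8 livers, with LWT livers in blue, LΔRbfox2 livers in red, LWT replicate 4 as a star and a bar at the median of each genotype. LWT replicate 4 stands apart for *Saa1* (681 CPM), *Saa2* (455 CPM) and *Lcn2* (42.5 CPM), and the genotypes overlap for all 10 genes.

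*Lcn2* encodes lipocalin 2, which withholds iron from bacteria by binding their siderophores. *Lcn2* (2:32384633-32388252) was at 2.74, 1.43, 2.16 and 42.5 CPM in the LWT livers and at 2.95, 1.06, 2.30 and 3.38 CPM in the LΔRbfox2 livers. Apart from LWT replicate 4, at 20.4 times the geometric mean of the other LWT livers, all 7 livers lay within a 3.18-fold range, and the within-genotype SD without that liver, 0.64 on the log2 scale, was at the 83.3 percentile of all genes. For *Saa1* and *Saa2* the same liver was 34.7 and 54.0 times the geometric mean of the other LWT livers.

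Of the other serum amyloids, *Saa4* did not stand out in LWT replicate 4. *Saa3* was there at 1.97 times the geometric mean of the other LWT livers, and LΔRbfox2 replicates 1 and 4 were higher. *Saa4* (7:46727998-46732603) was at 93.2, 90.3, 129 and 116 CPM in the LWT livers and at 91.0, 60.6, 108 and 131 CPM in the LΔRbfox2 livers, a 2.16-fold range in all. *Saa3* (7:46711998-46715700) was at 2.40, 2.79, 2.31 and 4.95 CPM in the LWT livers and at 5.89, 1.16, 2.85 and 11.6 CPM in the LΔRbfox2 livers. *Saa3* was highest in LΔRbfox2 replicate 4 and lowest in LΔRbfox2 replicate 2, so both ends of its 10.05-fold range were LΔRbfox2 livers, and its within-genotype SD of 1.06 was at the 97.3 percentile of all genes.

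The orosomucoids are abundant acute phase glycoproteins that bind basic and lipophilic molecules. *Orm1* (4:63344560-63348163) was at 289, 279, 231 and 367 CPM in the LWT livers and at 572, 221, 561 and 636 CPM in the LΔRbfox2 livers. The LΔRbfox2 livers other than replicate 2 all lay above every LWT liver, and LΔRbfox2 replicate 2 lay below every LWT liver. *Orm2* (4:63362449-63365878) was at 11.6, 4.5, 4.26 and 18.5 CPM in the LWT livers and at 14.6, 3.86, 9.57 and 9.78 CPM in the LΔRbfox2 livers, so it was highest in LWT replicate 4 and the genotypes overlapped. The *Orm1* and *Orm2* mRNAs shared 47 of 676 stretches of 100 bases (6.95%), and as the counting of reads that match several genes is not given in the sources used here, part of the *Orm2* counts is uncertain.

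*Hp* and *Hpx* bind free haemoglobin and free haem in plasma, and *Apcs* encodes the main acute phase pentraxin of the mouse. *Hp* (8:109575128-109579172) was at 1088, 1717, 1859 and 2384 CPM in the LWT livers and at 1655, 1326, 1799 and 1551 CPM in the LΔRbfox2 livers. *Hpx* (7:105591613-105600137) was at 1916, 2278, 2265 and 2633 CPM in the LWT livers and at 3238, 1302, 2475 and 2938 CPM in the LΔRbfox2 livers. Over all livers *Hp* stayed within a 2.19-fold and *Hpx* within a 2.49-fold range, with *Hp* lowest in LWT replicate 1 and *Hpx* lowest in LΔRbfox2 replicate 2. *Apcs* (1:172893961-172895041) was at 38.5, 48.6, 43.6 and 62.1 CPM in the LWT livers and at 70.7, 23.5, 57.2 and 98.8 CPM in the LΔRbfox2 livers, with its lowest and highest values both among the LΔRbfox2 livers.

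Per length of mRNA, *Hpx* and *Hp* were the most abundant of the 10 genes in all 8 livers. Their levels ran from 869 to 2160 and from 809 to 1772 CPM per kilobase respectively. *Orm1* ran from 285 to 821 CPM per kilobase and came next in the 7 livers other than LWT replicate 4. *Saa1* was at 9.41 to 103 CPM per kilobase in 7 livers and at 1118 in LWT replicate 4, where it lay within the range of *Hp*. In LWT replicate 4 *Saa2* was at 697 and *Orm1* at 474 CPM per kilobase. *Lcn2* was lowest of the 10 per kilobase in 7 livers and *Saa3* in LWT replicate 4.

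LΔRbfox2 replicate 2 had the lowest value of the 8 livers for 9 of the 10 genes, *Hp* being the exception. The same liver was lowest for 9.21% of all genes tested, and for 8 of the 20 tested genes of a list of other positive acute phase genes. It also had the lowest summed CPM of the 10 genes (2947 CPM, against 3540 to 6764 CPM in the other livers), while its summed hepatocyte markers (51380 CPM) lay within the range of the other livers (49040 to 72220 CPM). It had the largest library and the most *Rbfox2* mRNA of the LΔRbfox2 livers (6.09 CPM, against 4.61, 2.24 and 3.19 CPM in replicates 1, 3 and 4). Whether depth or the remaining *Rbfox2* has a part in the low values was not tested.

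Between genotypes, none of the 7 genes tested over all livers passed an adjusted *P* of 0.05, and none of the 10 genes had livers that did not overlap. In the quasi-likelihood fit of edgeR, adjusted by Benjamini-Hochberg, 0 of all 13856 genes passed that threshold (0.0%), 1356 (9.79%) had an unadjusted *P* under 0.05, and 2.28% had livers that did not overlap. *Rbfox2*, the targeted gene, did not pass either, with a log2 fold change (LΔRbfox2 minus LWT) of −1.82 and an adjusted edgeR *P* of 0.504. DESeq2 called 10 genes (0.0722%), none of them among the 7 acute phase genes tested over all livers. For *Saa1*, *Saa2* and *Lcn2* no DESeq2 *P* was available, so for them no call could be read. Of the 7 genes that were tested over all livers, *Orm1* alone had an unadjusted edgeR *P* under 0.05, being higher in the LΔRbfox2 livers, as 7.95% of all genes were at that threshold.

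*Orm1* averaged 291 ± 56.7 CPM (SD, n = 4) in the LWT livers and 497 ± 187 CPM (SD, n = 4) in the LΔRbfox2 livers. Its log2 fold change (LΔRbfox2 minus LWT) was 0.77 by edgeR, the limma-voom standard error was 0.32, and the adjusted edgeR *P* was 0.504. Without LΔRbfox2 replicate 2 the log2 fold change was 1.02 and the adjusted *P* was 0.0834 by the same test, and without LWT replicate 4 they were 0.90 and 0.899. With *Orm2* added into the same row, the log2 fold change of the sum was 0.75 (adjusted *P* = 0.502, edgeR).

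The other genes tested over all livers differed by less than the spread between livers. *Saa3* had a log2 fold change of 0.78 ± 0.63 (SE; adjusted *P* = 0.595, edgeR), which was 0.08 without LΔRbfox2 replicate 4 and 1.12 without LΔRbfox2 replicate 2. The edgeR log2 fold change was 0.37 ± 0.38 for *Apcs* (adjusted *P* = 0.658) and 0.13 ± 0.28 for *Hpx* (adjusted *P* = 0.834). For *Saa4*, *Hp* and *Orm2* it was −0.14 ± 0.25 (adjusted *P* = 0.804, edgeR), −0.15 ± 0.25 (adjusted *P* = 0.778) and −0.04 ± 0.54 (adjusted *P* = 0.977). The standard errors again come from limma-voom. Its own log2 fold changes were 0.30 for *Saa3*, 0.23 for *Apcs* and 0.07 for *Hpx*. For *Saa4*, *Hp* and *Orm2* they were −0.17, −0.10 and 0.08.

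For the 3 genes chosen on LWT replicate 4, the difference between genotypes rested on that liver. Over 8 livers the edgeR log2 fold change was −2.75 for *Saa1*, −3.36 for *Saa2* and −2.34 for *Lcn2*, and limma-voom, which averages log values, gave −1.23 ± 1.24 (SE), −1.60 ± 1.498 and −1.003 ± 0.98. In the 7 livers without it, *Saa1* averaged 28.1 ± 29.6 CPM (SD, n = 3) in LWT and 28.5 ± 24.5 CPM (SD, n = 4) in LΔRbfox2 livers, a log2 fold change of 0.02 (adjusted *P* = 0.996, edgeR). In the same livers the log2 fold change was −0.30 for *Saa2* (adjusted *P* = 0.956, edgeR) and 0.19 for *Lcn2* (adjusted *P* = 0.934, edgeR). Of the 14080 genes tested without this liver, 0 passed the adjusted threshold by edgeR and 505 (3.59%) had an unadjusted *P* under 0.05. Standard errors without it were 0.83 for *Saa1*, 1.02 for *Saa2* and 0.43 for *Lcn2* on the log2 scale.

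**Figure D2:**
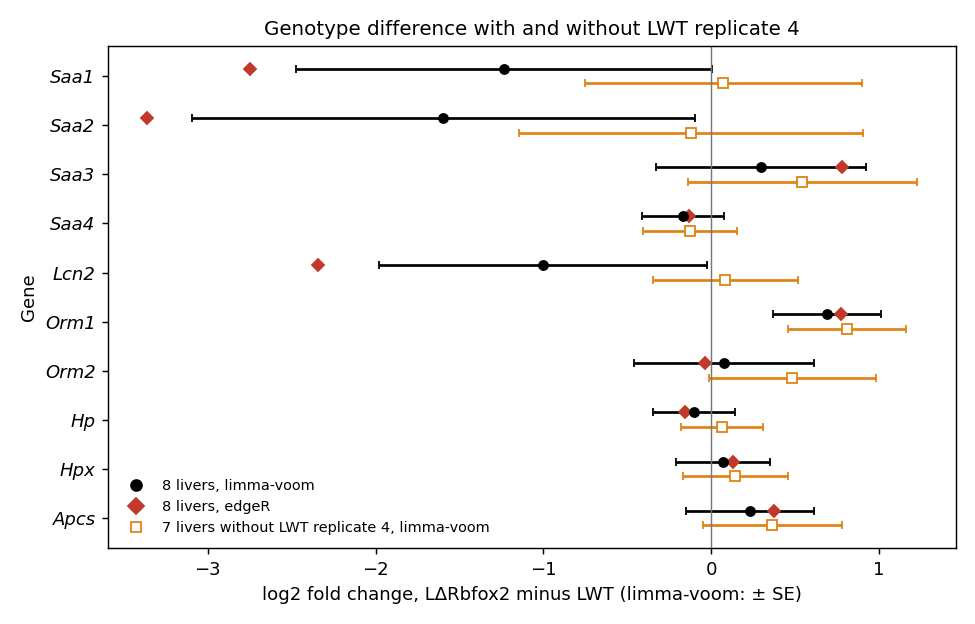
log2 fold change (LΔRbfox2 minus LWT) of the 10 genes: limma-voom estimates with standard errors over 8 livers (black circles) and over the 7 livers without LWT replicate 4 (open squares), and edgeR estimates over 8 livers (red diamonds). The edgeR values of *Saa1*, *Saa2* and *Lcn2* (−2.75, −3.36 and −2.34) lie well below the limma-voom values, and without LWT replicate 4 the 3 genes lie near 0.

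From liver to liver, *Saa2* and *Orm2* followed *Saa1* closely, in both genotypes. Over the 7 livers without LWT replicate 4, *Saa2* and *Saa1* had a Pearson *r* of 0.995 (exact permutation test over pairings, two-sided *P* = 3.97e-04, adjusted *P* = 0.00357 over the 9 genes set against *Saa1*) and a Spearman rho of 0.96 (exact *P* = 0.00278, adjusted *P* = 0.0125). *Orm2*, which encodes a protein unrelated to serum amyloid A, put the 7 livers in the same order as *Saa1*, with a rho of 1 (exact permutation *P* = 3.97e-04, the smallest that 7 livers allow, adjusted *P* = 0.00357) and *r* of 0.94 (exact permutation *P* = 0.00258, adjusted *P* = 0.0116). In that shared order LΔRbfox2 replicate 2 was lowest, followed by LWT replicates 3 and 2, LΔRbfox2 replicates 3 and 4, LWT replicate 1 and LΔRbfox2 replicate 1.

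With the 2 livers of *Saa1* farthest from the median also left out (LΔRbfox2 replicate 1 and LWT replicate 1), *r* over the remaining 5 livers was 0.99 for *Saa2* and 0.90 for *Orm2*. Over these 5 livers it was as high for *Apcs* (0.99), *Saa3* (0.93), *Hpx* (0.93), *Orm1* (0.92) and *Lcn2* (0.90), and lower for *Saa4* (0.76) and *Hp* (0.38). Those 5 livers therefore do not set *Saa2* and *Orm2* apart from most of the other genes. LWT replicate 4 was highest for *Saa1*, *Saa2* and *Orm2* as well, and over 8 livers *r* was 0.998 for *Saa2* and 0.89 for *Orm2*, or 0.998 and 0.95 on values centred on the genotype mean. *Lcn2* had an *r* of 0.82 with *Saa1* over the 7 livers (exact permutation *P* = 0.0252, adjusted *P* = 0.0756), which does not pass the correction. All these values share the scaling of each library.

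For the other 6 genes no relation with *Saa1* passed the correction over the 7 livers (adjusted exact permutation *P* between 0.264 and 0.572 for *r*). Their *r* was 0.58 for *Saa3*, 0.58 for *Orm1*, 0.60 for *Hpx*, 0.54 for *Apcs* and 0.27 for *Saa4*. By rank, *Orm1* had a rho of 0.82 (exact permutation *P* = 0.0341, adjusted *P* = 0.0768). *Hp* had an *r* of −0.31 over the 7 livers and of 0.41 with LWT replicate 4 included, so its sign rested on that liver.

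**Figure D3:**
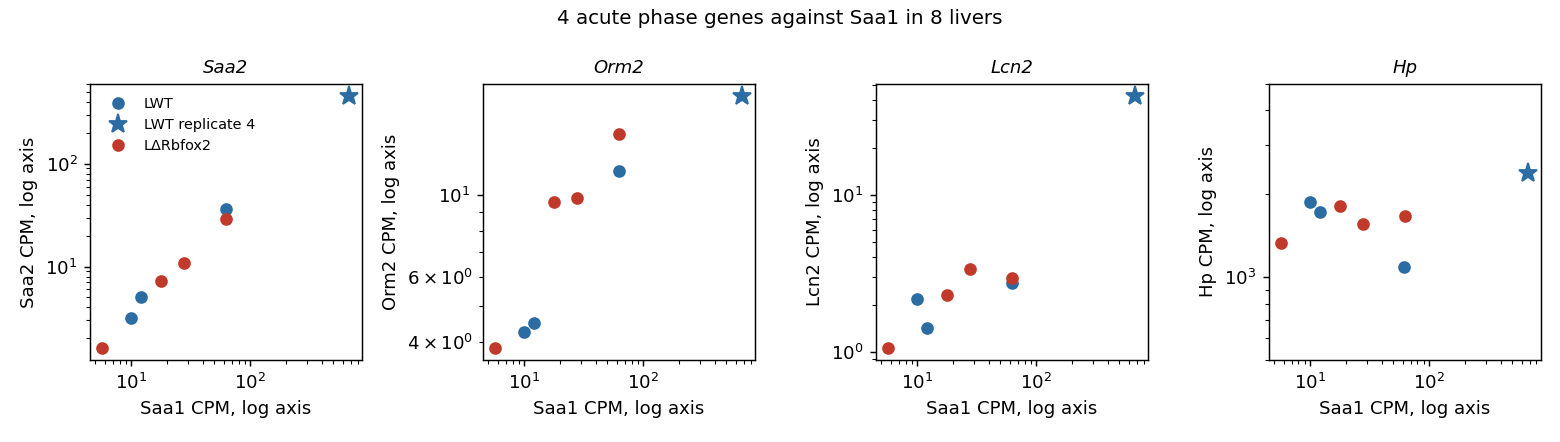
CPM of *Saa2*, *Orm2*, *Lcn2* and *Hp* against CPM of *Saa1* in the 8 livers (both axes log), LWT in blue with replicate 4 as a star and LΔRbfox2 in red. *Saa2* and *Orm2* climb with *Saa1* through all livers, *Lcn2* less closely, and *Hp* shows no such order (*r* = −0.31 without LWT replicate 4).

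Genes outside the 10 were also ranked by their likeness to the Saa genes. Over 8 livers the tested genes with the highest *r* with the mean log2 CPM of *Saa1* and *Saa2* were *A930036K24Rik* (0.97), *Birc3* (0.97), *Gtpbp6* (0.93), *Tmem120b* (0.91) and *Dennd1c* (0.90). *Birc3*, an inhibitor of apoptosis, was at 6.77 CPM in LWT replicate 4 and at 4.04 to 5.03 CPM in the others. Over the 7 livers without LWT replicate 4 they were *Ccdc117* (0.96), *A930036K24Rik* (0.94), *Gm26316* (0.94), *Mbtd1* (0.94) and *Enho* (0.94). Only *A930036K24Rik* was among the 5 in both, at 0.234 to 0.530 CPM, and these values were picked from all genes and carry no test.

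LWT replicate 4 was compared with the other LWT livers over lists of acute phase genes, as a description. Of the 7 genes of the 10 that were not chosen on this liver, all 7 lay above the geometric mean of the other LWT livers, from 1.13-fold for *Saa4* to 3.03-fold for *Orm2*, where 52.9% of all genes did. Only *Orm2* among them was at least 2-fold higher, where 4.29% of all genes were, and 2 (*Orm2* and *Hp*) were highest of the 8 livers, where 15.0% of all genes were.

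Among 20 tested genes of the list of other positive acute phase genes, 11 lay above the geometric mean of the other LWT livers. Below it lay 9, and 4 were at least 2-fold above it. These were *Mt2* (2.74-fold) and *Mt1* (2.36-fold), the metallothioneins that bind zinc and copper, *Orm3* (2.35-fold) and *Fgl1* (2.16-fold), a fibrinogen-like protein of hepatocytes. *Serpina3n*, a serine protease inhibitor, was 1.94-fold and *Lrg1* 1.82-fold higher. The fibrinogen chain genes *Fga*, *Fgb* and *Fgg* were at 0.869, 0.868 and 0.848 times that mean. *Hamp*, which encodes the iron hormone hepcidin, was at 0.633 times. The 8 negative acute phase genes were highest in other livers, and 7 of them lay below the geometric mean of the other LWT livers. Among these were *Ttr* (0.661-fold), *Pon1* (0.682-fold) and *Alb* (0.779-fold). LWT replicate 1 was about as low for them. It had *Ttr* at 1671 CPM, *Pon1* at 431 CPM and *Alb* at 33150 CPM, against 1719, 402 and 32480 CPM in LWT replicate 4.

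**Figure D4:**
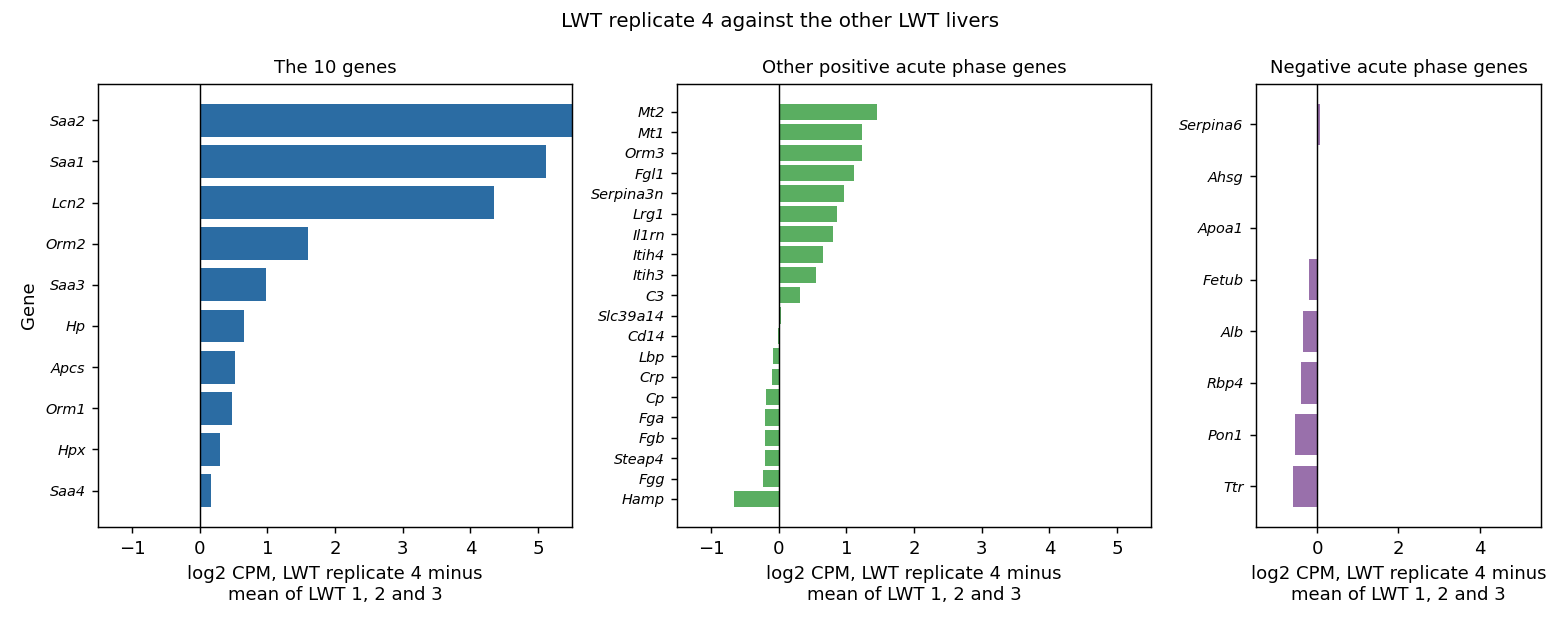
log2 CPM of LWT replicate 4 minus the mean of LWT replicates 1, 2 and 3 (x axis) for the 10 genes, the 20 tested genes of the list of other positive acute phase genes and the 8 negative acute phase genes. *Saa2*, *Saa1* and *Lcn2* extend from 4.35 to 5.75, the other genes from −0.66 to 1.60, and 7 of the 8 negative genes lie below 0.

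The genes that make and carry the acute phase signal were then read between genotypes. Of the cytokine ligands, *Il6*, *Tnf*, *Osm*, *Lif* and *Il22* were at most 4 counts per liver, below what the filter needs, and *Il22* had 0. *Il1b* was at 0.209, 0.683, 0.874 and 0.737 CPM in the LWT livers and at 0.297, 0.265, 0.204 and 0.372 CPM in the LΔRbfox2 livers (log2 fold change −1.14 ± 0.47, unadjusted edgeR *P* under 0.05, adjusted *P* = 0.504). *Il1a* had a log2 fold change of −0.26.

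All 9 cytokine receptors were tested, and none had an unadjusted edgeR *P* under 0.05, where 9.79% of all genes did. The largest log2 fold changes were −0.58 for the interleukin-1 receptor *Il1r1*, −0.35 for gp130 (*Il6st*) and 0.34 for the interleukin-1 receptor accessory protein *Il1rap*. Of 11 signal transducers and transcription factors, 10 had a log2 fold change below 0 and 2 an unadjusted edgeR *P* under 0.05 (lower in LΔRbfox2, where 1.83% of all genes were), with a median of −0.24 against −0.02 over all genes tested. These were *Stat3* (−0.67 ± 0.28) and *Cebpb* (−0.64 ± 0.21), the latter at 75.2, 74.6, 94.2 and 115 CPM in the LWT livers and at 48.7, 75.1, 55.7 and 50.6 CPM in the LΔRbfox2 livers. Both had an adjusted edgeR *P* of 0.504, and without LWT replicate 4 it was 0.899 for both. The kinase *Tyk2* had a log2 fold change of −0.53.

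Among 6 tested feedback inhibitors, 1 had an unadjusted edgeR *P* under 0.05, where 9.79% of all genes did (1.83% lower in LΔRbfox2). *Socs3*, the inhibitor that STAT3 induces, was at 4.78, 3.86, 6.30 and 5.37 CPM in the LWT livers and at 1.26, 3.53, 3.34 and 3.44 CPM in the LΔRbfox2 livers. Its livers did not overlap between genotypes, as in 2.28% of all genes, and its log2 fold change was −0.81 ± 0.34 (adjusted *P* = 0.504, edgeR). *Nfkbiz* and *Tnfaip3* had log2 fold changes of −0.43 and 0.37.

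Receptors and enzymes that handle the 10 proteins included 7 tested genes, of which 1 had an unadjusted edgeR *P* under 0.05, where 9.79% of all genes did (1.83% lower). *Cd163*, the macrophage receptor that clears haptoglobin bound to haemoglobin, was at 5.04, 3.01, 7.76 and 6.01 CPM in the LWT livers and at 2.83, 2.50, 2.04 and 2.01 CPM in the LΔRbfox2 livers. Every LΔRbfox2 liver was below every LWT liver, with a log2 fold change of −1.21 ± 0.31 (adjusted *P* = 0.504, edgeR). Among all genes, 2.28% had livers that did not overlap, in either direction. The 7 markers of Kupffer cells and macrophages summed to 47.0 to 82.6 CPM in the LWT livers and to 27.7 to 51.4 CPM in the LΔRbfox2 livers, with overlap. Of these markers, 5 had a log2 fold change below 0 and 2 above 0 (*Marco* 0.48 and *Timd4* 0.08), and 3 of 7, all lower in LΔRbfox2 livers (*Csf1r* −0.94, *Cd68* −0.77 and *Clec4f* −0.73), had an unadjusted edgeR *P* under 0.05, where 1.83% of all genes were lower. The part of such cells in the *Cd163* values was not tested. *Lrp1*, the hemopexin receptor, had a log2 fold change of −0.85 ± 0.54 and *Fpr2*, a receptor for serum amyloid A, one of 0.53 ± 0.49.

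Of the 20 other positive acute phase genes, 16 had a log2 fold change below 0, with a median of −0.22, and 1 had an unadjusted edgeR *P* under 0.05, where 9.79% of all genes did (1.83% lower). That gene was *Slc39a14*, a zinc and iron transporter (−0.53 ± 0.18, adjusted *P* = 0.504, edgeR). The largest log2 fold changes were those of *Mt2* (−0.72 ± 0.48), *Serpina3n* (−0.60 ± 0.30) and *Steap4* (−0.58 ± 0.27). All 8 negative acute phase genes had a log2 fold change above 0, with a median of 0.30. None of the 8 had an unadjusted edgeR *P* under 0.05, where 9.79% of all genes did. Their largest log2 fold changes were those of *Pon1* (0.53 ± 0.31), *Rbp4*, the retinol carrier (0.52 ± 0.26), and *Apoa1*, the main protein of high-density lipoprotein (0.36 ± 0.23). Over all genes tested, 51.6% had a log2 fold change below 0 and the median was −0.02. Part of these differences rested on LWT replicate 4. Without it the median was −0.13 for the other positive and 0.20 for the negative genes. *Mt2* was then at −0.21, *Serpina3n* at −0.30 and *Steap4* at −0.64, and the negative gene *Fetub* lay below 0, at −0.009.

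**Figure D5:**
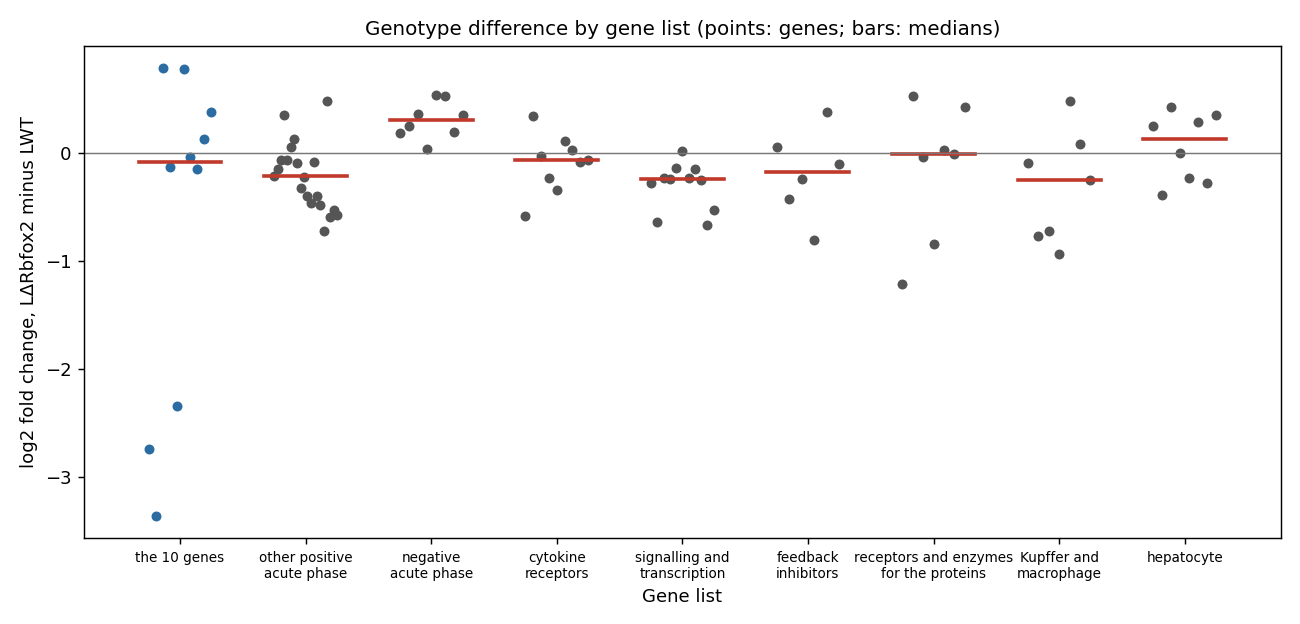
log2 fold change (LΔRbfox2 minus LWT, edgeR, 8 livers) of the tested genes of 9 lists, each point a gene and each red bar the median of its list. The 8 negative acute phase genes all lie above 0 (median 0.30), 16 of 20 other positive ones lie below 0 (median −0.22), and *Saa1*, *Saa2* and *Lcn2* lie lowest, at −2.34 to −3.36.

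Markers of other cell types were read beside *Lcn2* and the Saa genes. Neutrophils store lipocalin 2, and their 10 markers summed to 0.299 CPM in LWT replicate 4, below the 0.499 to 0.705 CPM of the other LWT livers. Kupffer cell and macrophage markers summed to 50.8 CPM there, against 47.0 to 82.6 CPM in the other LWT livers. Adipocyte markers summed to 5.55 CPM there (1.91 to 6.09 CPM in the others), with *Adipoq* at no more than 3 counts and *Lep* at 0 in every liver. Monocyte markers summed to 829 CPM there, the highest of the 8 livers (269 to 776 CPM in the others), of which *Fn1*, which hepatocytes also make, was 828 CPM, and the other tested monocyte marker, *Ccr2*, was at 0.530 CPM (0.314 to 0.640 CPM in the others). The part of these cell types in the Saa and *Lcn2* values was not tested. In LΔRbfox2 against LWT livers, 0 of the tested hepatocyte (8), neutrophil (1), monocyte (2), adipocyte (2), cholangiocyte (4) or exocrine pancreas (1) markers had an unadjusted edgeR *P* under 0.05. Among all genes tested 9.79% had such a *P*, so few would be looked for in lists this short.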

How the data were processed

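RNA-seq of 8 livers, 4 per genotype, was used. The authors sequenced poly(A) RNA as paired-end reads of 100 bases, per the labels with CASAVA 1.8.4, TopHat2 2.0.11 and featureCounts on GRCm38, and deposited unnormalized gene counts; the strand and multi-mapping settings of the counting are not given in the sources used here. Columns were matched to livers by the names in the labels, with 0 left over. GENCODE M21 gave a symbol to 45143 of 46078 identifiers. The deposited counts, 37482458 to 56177588 per liver, were tested with edgeR 4.0.16 (R 4.3.3): filterByExpr (minimum count 10, minimum total 15), TMM, glmQLFit and glmQLFTest on genotype, Benjamini-Hochberg over all genes tested, and an adjusted *P* of at most 0.05. The limma-voom fit (limma 3.58.1) gave the standard errors, and log2 CPM used a prior count of 2. *P*-values measure the spread between these livers, and the labels do not say whether mice shared litters. No 2 libraries of a genotype were copies (smallest chi-square per degree of freedom 97.8).

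The members and lists were chosen with earlier results of these data known. Named are the 10 genes, *Rbfox2*, the 5 tested genes most correlated with the mean of *Saa1* and *Saa2* (with and without LWT replicate 4) and, from each list, the 3 tested genes of largest absolute log2 fold change and any past the threshold. Genes named for LWT replicate 4 in the list of other positive and negative acute phase genes, *Birc3* in detail, and *Marco*, *Timd4*, *Fn1*, *Ccr2*, *Adipoq*, *Lep* and the untested cytokines were chosen after their values were seen. The lists were other positive (21 genes) and negative (8) acute phase genes, cytokine ligands (7), cytokine receptors (9), signal transducers and transcription factors (11), feedback inhibitors (8), receptors and enzymes for the proteins (8), and markers of hepatocytes, neutrophils, Kupffer cells and macrophages, monocytes, adipocytes, cholangiocytes and exocrine pancreas. Correlations used exact permutation tests over pairings, two-sided, adjusted over 9 genes. Promoters and their build come from RefSeq.

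Alternatives were DESeq2 (1.42.0) and upper-quartile size factors, the DESeq2 and limma-voom tests, no filter or at least 10 counts in every liver, robust estimation, the replicate number as a block, similar copies added into 1 row, a prior count of 0.5, genotype-centred values and each liver left out. On simulated data with 200 of 13856 genes changed between these genotypes, edgeR recovered 1 gene at a log2 fold change of 1 and 178 at 2, and DESeq2 69 and 188. Tables and figures were made in Python 3.11.15 with scipy 1.17.1, numpy 2.4.6, matplotlib 3.10.9 and pandas 2.3.3.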

Additional observations from a re-analysis of the deposited data

Results flagged for a closer look

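In LWT replicate 4, *Saa1* reached 681 CPM while the other LWT livers lay at 9.98 to 62.2 CPM, *Saa2* reached 455 CPM (others 3.18 to 36.7 CPM) and *Lcn2* 42.5 CPM (others 1.43 to 2.74 CPM). The gap to the nearest LWT liver was 0.922, 0.926 and 0.968 of the group's range. As the 3 genes were chosen for these values and all 3 come from 1 liver, this is a description and no test.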

How the results depend on the processing

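Among 90 log2 fold changes of the 10 genes under other settings than leaving out a liver, 87 kept their direction, and no gene with a P over all livers crossed the threshold. For *Saa1*, *Saa2* and *Lcn2*, chosen on LWT replicate 4, no P over all livers is given under any setting. The 3 that changed sign were all of *Orm2*, which went from −0.036 to 0.076 with limma-voom, 0.088 with the replicate block and 0.75 with *Orm1* added into its row, where *Orm1* makes up most of the sum. Leaving out each liver in turn gave log2 fold changes from −3.47 to 0.022 for *Saa1*, −4.24 to −0.30 for *Saa2*, 0.08 to 1.12 for *Saa3*, −0.30 to 0.037 for *Saa4*, −2.71 to 0.19 for *Lcn2*, 0.64 to 1.02 for *Orm1*, −0.32 to 0.48 for *Orm2*, −0.35 to 0.026 for *Hp*, −0.016 to 0.34 for *Hpx* and 0.07 to 0.65 for *Apcs*. *Saa1*, *Lcn2* and *Hp* changed sign only without LWT replicate 4.

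The number of genes called was 0 under every setting but the DESeq2 test (10), and 0 without each liver in turn. Genes at an unadjusted edgeR *P* under 0.05 numbered 404 without LΔRbfox2 replicate 4 and 3475 without LΔRbfox2 replicate 2, against 1356 with all livers; they numbered 1844 without a filter on low counts and 335 with the replicate block. Deviations of same-numbered livers from their genotype means correlated at 0.13, −0.61, 0.12 and −0.51 (mean −0.22), so the shared numbers were not taken as pairs. With the block, none of the 10 genes that has a *P* over all livers crossed the threshold. As a description, the log2 fold change with the block was −0.98 for *Saa1*, −1.30 for *Saa2* and −0.87 for *Lcn2*.

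All 27 correlations with *Saa1* kept their direction under other settings, and those with a P over 8 livers kept their side of the threshold (*Saa2* and *Lcn2* had none). Leaving out each liver changed the sign for *Hp* (−0.31 to 0.77) and *Saa4* (−0.034 to 0.55), and the range was 0.86 to 0.94 for *Orm2*, 0.82 to 0.96 for *Lcn2* and 0.995 to 0.999 for *Saa2*. Of the list medians, that of the cytokine ligands moved most under settings other than leaving out a liver. It went from −0.70 to −0.24 without a filter (6 genes) and −0.27 with at least 10 counts in every liver (1 gene), as other genes were then tested. Leaving out each liver in turn, the median of the 10 genes ran from −0.18 to 0.20 and that of the receptors and enzymes from −0.27 to 0.027, so both changed sign. The cause of the other changes was not tested. At 4 livers a genotype, a log2 fold change of 1 was recovered in the simulated data for 1 of 200 genes by edgeR and for 69 by DESeq2, which called 100 genes in all, so edgeR could have called few differences of that size between genotypes here.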

Other observations

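LΔRbfox2 replicate 4, which had the highest *Saa3* (11.6 CPM), was also the highest of the 8 livers for the macrophage scavenger receptor *Marco*, at 12.2 CPM where the other livers had 1.14 to 5.57 CPM, and for *Fpr2* (1.18 CPM against 0.219 to 0.499 CPM) and *Tlr2* (1.77 CPM against 0.484 to 1.23 CPM), receptors that bind serum amyloid A. These genes were picked after their values were seen, and *Cd68*, *Csf1r* and *Clec4f* went the other way in that liver, where each had its lowest value of the 8 livers (1.18, 4.46 and 11.1 CPM).

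*Orm3*, the third orosomucoid gene of the mouse, was at 0.836, 0.482, 0.458 and 1.41 CPM in the LWT livers and at 0.548, 0.671, 2.56 and 0.681 CPM in the LΔRbfox2 livers. Its highest liver, LΔRbfox2 replicate 3, was not the highest for *Orm1* or *Orm2*. The ratio of *Orm1* to *Orm2* ran from 19.9 in LWT replicate 4 to 65.1 in LΔRbfox2 replicate 4.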
